A study of Mus musculus with 6 samples.

Results

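Regions of the mouse genome that carried a methylated DNA peak in every TGF-β1-treated sample and in no control sample were examined in mesangial cells. Overlapping peaks of 6 samples (1 bp or more) formed 170444 regions. Of these, 1616 (0.948%) had a peak in all 3 TGF-β1 samples and in none of the 3 control samples, and they are called TGF-β1-only regions here. They made up 2.55% of the 63315 regions called in all 3 TGF-β1 samples. The reverse set, with a peak in all 3 control samples and in no TGF-β1 sample, held 397 regions (0.233% of all regions, and 0.808% of the 49140 regions called in all 3 control samples). The members were selected on the calls themselves, so their numbers and pileups are given as a description, with no test.

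The samples were mouse primary mesangial cells in culture at passages 3 to 6, in medium with 25.5 mM glucose and 20% serum, which both groups shared. There were 3 control samples and 3 samples kept for 72 h with TGF-β1 at 10 ng/ml, and methylated DNA was pulled down with an antibody and sequenced (MeDIP-Seq). The study describes the samples of a group as biological replicates, and the strain, sex and age of the animals are not given in the sources used here. These are cultured cells in high glucose without the glomerulus around them, and a peak list carries no marker RNA by which the cell type could be checked. Peak calling used 10319496, 9407103 and 11494356 reads for control and 12748318, 12634300 and 13291419 reads for TGF-β1, each in the order of replicates 1, 2 and 3. Every TGF-β1 sample was therefore deeper than every control sample, and for a call that is made or missed near the threshold, depth and treatment cannot be told apart.

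Mesangial cells are the contractile cells that hold the capillary loops of the kidney glomerulus together. TGF-β1 signals through a pair of receptor kinases and the Smad proteins, and it is a main driver of matrix deposition in this tissue. In mammals, methyl groups sit mostly on the cytosine of CpG dinucleotides, most CpG sites outside promoters are methylated, and the antibody used here pulls down fragments best where several methylated CpG lie close together. A peak is thus a place with enough methylated CpG to rise above the surrounding signal, and a missing peak is not a measurement of unmethylated DNA.

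The reference sequence (NCBIM37, the same assembly as mm9, plus strand) is shown for the 4 TGF-β1-only regions of highest mean pileup, to show how much CpG lies around the summit. The stretches are 300 bases around the mean summit, with every CpG in capitals. They lie at chr8:111262145-111262444 in intron 1 of Zfhx3, at chr15:96732027-96732326 downstream of Slc38a4, at chr19:56614157-56614456 in intron 6 of Dclre1a and at chr8:47645197-47645496 in intron 4 of Mlf1ip.
Zfhx3 intron: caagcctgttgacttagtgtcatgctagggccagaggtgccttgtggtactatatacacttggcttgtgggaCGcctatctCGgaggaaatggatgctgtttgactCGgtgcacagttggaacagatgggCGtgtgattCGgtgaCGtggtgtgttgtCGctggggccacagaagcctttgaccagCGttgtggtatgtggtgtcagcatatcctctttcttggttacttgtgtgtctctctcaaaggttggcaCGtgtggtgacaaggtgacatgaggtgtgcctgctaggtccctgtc
Slc38a4 downstream: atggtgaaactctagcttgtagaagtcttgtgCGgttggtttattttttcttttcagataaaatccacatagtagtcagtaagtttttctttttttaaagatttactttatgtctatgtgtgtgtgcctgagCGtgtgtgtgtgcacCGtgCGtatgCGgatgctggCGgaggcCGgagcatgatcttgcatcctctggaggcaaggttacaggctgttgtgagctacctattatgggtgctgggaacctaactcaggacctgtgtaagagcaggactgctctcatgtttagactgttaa
Dclre1a intron: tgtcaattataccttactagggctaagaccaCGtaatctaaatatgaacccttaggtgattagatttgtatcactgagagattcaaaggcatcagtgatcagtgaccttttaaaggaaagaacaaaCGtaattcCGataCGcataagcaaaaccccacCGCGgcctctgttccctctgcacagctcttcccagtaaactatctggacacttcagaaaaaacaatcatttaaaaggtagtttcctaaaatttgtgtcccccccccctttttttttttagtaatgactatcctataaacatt
Mlf1ip intron: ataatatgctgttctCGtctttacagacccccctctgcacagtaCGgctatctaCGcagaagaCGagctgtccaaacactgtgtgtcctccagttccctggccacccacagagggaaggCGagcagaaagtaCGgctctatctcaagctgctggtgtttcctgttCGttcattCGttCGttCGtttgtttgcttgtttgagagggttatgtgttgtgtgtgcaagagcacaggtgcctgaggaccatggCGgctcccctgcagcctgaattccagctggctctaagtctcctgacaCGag

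These stretches hold 9, 7, 6 and 12 CpG in the order shown. The Mlf1ip stretch runs past the end of its region at 47645484, and the last CpG shown lies beyond that end. Their GC content was 52.7%, 44.3%, 38.7% and 53.0%. Over all members that could be placed on the annotated chromosomes (1611 of 1616, the other 5 being on unplaced sequence), the mean was 2.49 CpG per 100 bp and the median GC content 47.7%.

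Pileup, the number of extended reads over a peak's summit, was low in the TGF-β1-only regions. The median was 18 reads in TGF-β1 replicate 1 (range 10 to 45), 17 reads in replicate 2 (range 9 to 43) and 20 reads in replicate 3 (range 11 to 60). In the 41744 regions called in all 6 samples the same samples had medians of 28, 27 and 30 reads. Of the 1616 members, 547 (33.8%) had a mean pileup of at least 20 reads over the 3 samples and 46 (2.85%) of at least 30 reads. The control-only regions had medians of 16, 15 and 17 reads in control replicates 1, 2 and 3, which were sequenced less deeply. Per 1000000 reads, their medians were 1.55, 1.59 and 1.48, against 1.41, 1.35 and 1.5 for the members in TGF-β1 replicates 1, 2 and 3, so that the 2 ranges overlapped and the control-only regions were not lower on this scale. Within a member the 3 replicates differed by a median coefficient of variation of 13.2%, against 15.6% in regions of similar pileup called in all 6 samples. The median -log10 q was 8.13, 8.25 and 9.43 in TGF-β1 replicates 1, 2 and 3, so most members were not at the edge of the TGF-β1 calls themselves, whose threshold of 0.01 is 2 on this scale.

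**Figure D1:**
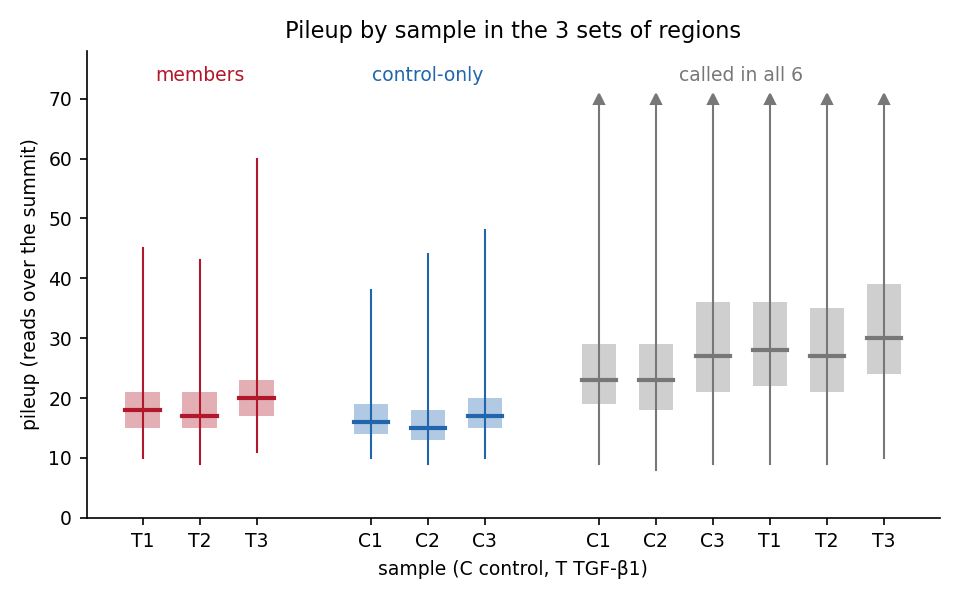
Pileup in reads (y axis) in each sample (x axis) for the TGF-β1-only regions (members), the control-only regions and the regions called in all 6 samples; thick lines are medians, boxes the middle 50% of regions, thin lines the range, and triangles mark ranges that go past 70 reads. The members' medians of 17 to 20 reads lie below those of 27 to 30 reads in the regions called in all 6 samples.

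How often a region was missed in the other group depended on its pileup in both directions. Among regions called in all 3 TGF-β1 samples, no control sample had a peak in 16.8% of those with a mean pileup of 12 to 14 reads. The share fell to 9.56% at 16 to 18 reads, 2.77% at 20 to 22 reads, 0.439% at 30 to 35 reads and 0.0278% (2 of 7190 regions) at 40 reads or more. Among regions called in all 3 control samples, no TGF-β1 sample had a peak in 5.23% at 12 to 14 reads, 1.93% at 16 to 18 reads and 0.506% at 20 to 22 reads. On the scale of pileup per 1000000 reads, which allows for depth in the value but not in the call, 7.19% of the TGF-β1 regions (95% exact interval 6.65 to 7.76%) and 4.11% of the control regions (3.45 to 4.86%) in the class whose mean was 1.39 and 1.40 per 1000000 reads had no peak in the other group. Intervals here and below cover counting error over regions only and say nothing about the spread between samples. In regions of similar pileup called in all 6 samples, the control samples reached weighted medians of 17, 16 and 19 reads, against 8 reads as the lowest pileup called in each control sample. Those regions were chosen for their control peaks, so the medians do not describe all regions of this pileup. Of the regions called in all 3 TGF-β1 samples, 31.6% at 16 to 18 reads and 40.7% at 18 to 20 reads were called in all 3 control samples. The 8 reads are the lowest over a whole sample, not the threshold at a given place.

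**Figure D2:**
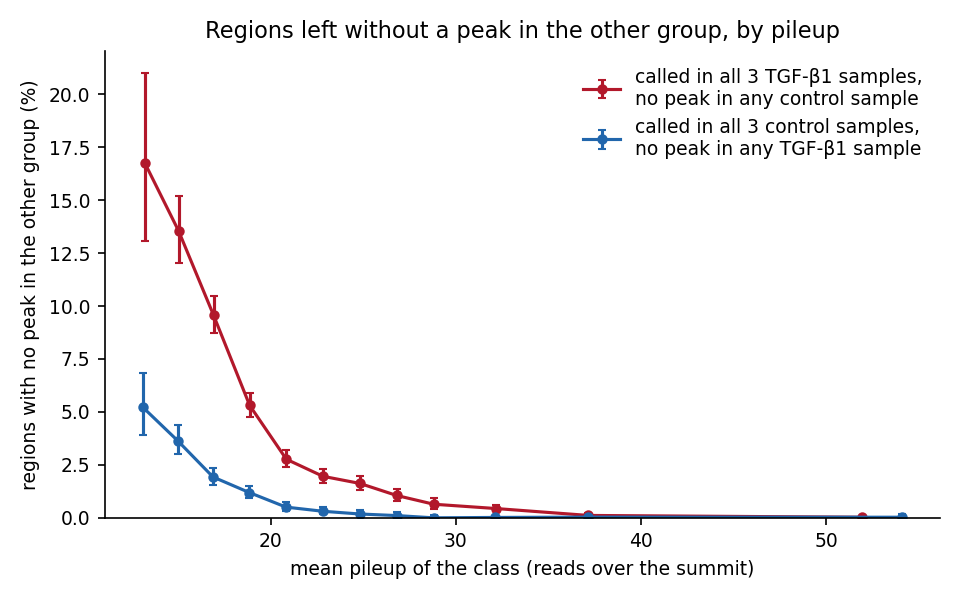
Share of regions (y axis, percent, with 95% exact intervals) that had no peak in any sample of the other group, by the mean pileup of the class in reads (x axis), for regions called in all 3 TGF-β1 samples (red) and in all 3 control samples (blue). Both curves fall with pileup, from 16.8% and 5.23% in the lowest class drawn, and the TGF-β1 curve is the higher of the pair in each class below 30 reads.

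The members border on regions that missed the rule by a single sample. There were 5186 regions called in all 3 TGF-β1 samples and in 1 control sample, and the single control call was in replicate 3, the deepest control sample, in 44.3% of them, in replicate 2 in 28.5% and in replicate 1 in 27.2%. Another 6574 regions were called in 2 TGF-β1 samples and in no control sample. The 3 members with the lowest mean pileup were in intron 15 of Dscaml1 (11, 9 and 13 reads in TGF-β1 replicates 1 to 3), in intron 4 of Megf10 (11, 12 and 12 reads) and downstream of Tcfap2c (12, 11 and 12 reads). Just outside the rule, a region upstream of Has2, which makes hyaluronan, had 11, 13 and 17 reads in the TGF-β1 samples and a peak of 8 reads in control replicate 2. A region upstream of Slit3 had 17, 14 and 14 reads with a control peak of 9 reads, and a region downstream of Rnf182 had 17, 14 and 13 reads with a control peak of 9 reads, both in control replicate 2.

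At the upper end, the highest pileup belonged to a region in intron 1 of Zfhx3, a large homeodomain and zinc finger transcription factor, at chr8:111262103-111262458. TGF-β1 replicates 1, 2 and 3 had 42, 43 and 60 reads there. The second was an intergenic region at chr15:96731977-96732681, 93077 bp downstream of the amino acid transporter gene Slc38a4, with 45, 34 and 41 reads. Intron 6 of Dclre1a, a DNA cross-link repair nuclease, held a region with 38, 35 and 45 reads at chr19:56614140-56614500. The centromere protein gene Mlf1ip held a region with 40, 39 and 37 reads in intron 4 at chr8:47645156-47645484. These 4 regions had more reads in every TGF-β1 sample than the median region called in all 6 samples.

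The next 4 were at chr5:73484812-73485217 in intron 23 of Fryl (42, 28 and 41 reads), at chr6:108310271-108310664 in intron 10 of Itpr1, an intracellular calcium release channel (30, 36 and 42 reads), at chr5:3436052-3436596 in intron 3 of the cell cycle kinase gene Cdk6 (39, 36 and 32 reads), and at chr10:118501375-118501763 downstream of Cand1 (37, 27 and 41 reads). Among these 4, the replicates of the Fryl and Cand1 regions spread most, with TGF-β1 replicate 2 the lowest in both. A limit of 5 on fold enrichment in each sample, one of the alternatives run, ended the call of 5 of these 8 regions, those in Zfhx3 (4.04, 4.57 and 4.74 in TGF-β1 replicates 1, 2 and 3), Dclre1a (4.29, 4.07 and 4.86), Mlf1ip (4.16, 4.06 and 3.91), Fryl (4.67, 3.8 and 4.24) and Cdk6 (4.93, 4.78 and 3.75). The regions near Slc38a4 and Cand1 and in Itpr1 kept theirs.

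The 8 regions of highest pileup all lay close to a control peak. The distance to the nearest control peak ran from 104 to 2611 bp, and 4 of the 8 had one within 1 kb. The Dclre1a region lay 149 bp from a region called only in control replicate 2, with 27 reads. The Zfhx3 region lay 718 bp from a region called only in control replicate 1, with 34 reads. Beside the Cdk6 region, at a distance of 104 bp, was a region called in control replicates 2 and 3 (25 and 42 reads) and in all 3 TGF-β1 samples (29, 30 and 33 reads). The region next to the one near Slc38a4 was called in all 6 samples, with 40, 40 and 49 reads in the control samples and 47, 56 and 62 reads in the TGF-β1 samples. At least 1 control sample thus had a peak beside each of the 8 regions, and none had a peak over it. For the Zfhx3, Dclre1a and Itpr1 regions, the nearest such region was called in a single control sample.

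Fold enrichment, the pileup plus 1 divided by the background plus 1 that the caller took from the same sample, separated the high members from other regions of the same pileup. Members with a mean pileup of 25 to 30 reads (131 regions) had a median fold enrichment of 5.16, whereas regions called in all 6 samples in the same class had 7.58. At 15 to 20 reads, where 902 of the members lie, the medians were 5.80 and 6.06. The median background that follows from pileup and fold enrichment was 4.35 reads in the members and 2.71 reads in the regions called in all 6 samples at 25 to 30 reads. At 15 to 20 reads it was 2.07 reads in both, which is the lowest background the caller used in TGF-β1 replicate 3. The share of members with a control peak within 1 kb rose with pileup as well, from 11.3% at 15 to 20 reads to 32.1% at 25 to 30 reads and 52.2% (24 of 46) at 30 reads or more (95% exact interval 36.9 to 67.1%). That share was not compared with other regions of the same pileup. By the background values, members of high pileup lay where the surrounding signal was also high. The part of this background in the missing control calls was not tested.

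**Figure D3:**
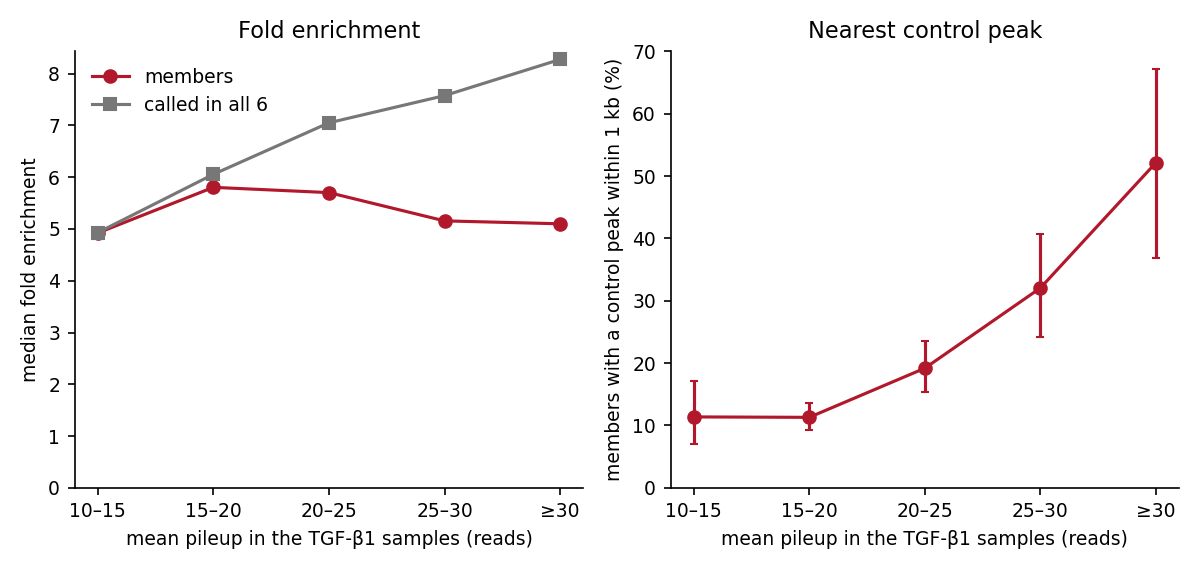
Left, median fold enrichment (y axis) of the TGF-β1-only regions (red) and of those called in all 6 samples (grey) by class of mean pileup in the TGF-β1 samples (x axis, reads). Right, share of TGF-β1-only regions with a control peak within 1 kb (y axis, percent, with 95% exact intervals). The sets start together at 10 to 15 reads and separate to 5.16 and 7.58 at 25 to 30 reads, while the share on the right rises to 52.2%.

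The 4 members of highest fold enrichment are given next. Fold enrichment divides by the local background, so this ranking itself favours places with little signal around them. A region in intron 6 of Tanc2, a scaffold protein gene, at chr11:105643196-105643573 had 22, 24 and 34 reads in TGF-β1 replicates 1 to 3 at a mean fold enrichment of 9.22. The other 3 were 19654 bp upstream of the ephrin receptor gene Ephb2 (20, 26 and 26 reads), in intron 51 of the dystrophin gene Dmd (25, 22 and 25 reads) and in intron 1 of Stac (22, 18 and 37 reads), each with a mean fold enrichment from 8.34 to 8.40. For these 4 regions the nearest control peak was 12983 to 32007 bp away. The Dmd window consists of repeated sequence, with a median of 13846 copies of its 20-base words in the genome. The authors kept uniquely mapped reads, and the placement of reads was not tested here. Other regions named here with at least 10 copies were those in Clip2 intron 1 (501 copies), Cdh12 (310), Dscaml1 (207), near Tcfap2c (79), in Cdk6 (31), Cyp46a1 (24) and Cubn (13).

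Over all 1616 members, 50 (3.09%) had a control peak within 200 bp, 258 (16%) within 1 kb and 915 (56.6%) within 5 kb. For the 397 control-only regions the shares with a TGF-β1 peak that near were 4.28%, 20.9% and 59.2%. In 206 of the 258 members with a control peak within 1 kb (79.8%), the neighbouring region also had a peak in at least 1 TGF-β1 sample, and in 70 (27.1%) it was called in all 6 samples. Regions called in all 6 samples made up 24.5% of all regions, including those without a control peak. Most regions with a control peak also had a TGF-β1 peak, so these counts are not read as a trait of the members' neighbours.

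Regions called in all 6 samples within 10 kb of a member allow the level around the members to be compared between groups with all samples measured. Over all 41499 regions called in all 6 samples on the annotated chromosomes, log2 pileup, after subtraction of each sample's median, was fitted with limma, and p-values were adjusted by the Benjamini-Hochberg method over all of them. No region passed an adjusted p of 0.05, 816 (1.97%) were higher after TGF-β1 and 912 (2.20%) lower at an unadjusted p below 0.05, and limma was the only tool run. This split depended on the scaling. Per 1000000 reads, without subtraction of the medians, 212 (0.511%) were higher and 2349 (5.66%) lower, and the median over all regions was -0.095. With log2 fold enrichment in place of pileup, 1 of the 41499 regions passed, at an adjusted p of 0.040 by limma, and it was not next to a member. Among the 782 regions next to a member, 7 (0.895%) were higher and 18 (2.30%) lower at an unadjusted p below 0.05, and per 1000000 reads 1 (0.128%) was higher and 54 (6.91%) lower. Their median log2 fold change was -0.022 (95% order-statistic interval -0.034 to -0.0034), against -0.0045 over all regions. The median was below 0 under every alternative run, but its interval included 0 without control replicate 1 (-0.028 to 0.0066), control replicate 3 (-0.034 to 0.0066), TGF-β1 replicate 1 (-0.032 to 0.0097) or TGF-β1 replicate 2 (-0.03 to 0.012), and with regions called in at least 3 samples (-0.029 to 0.014). No direction is read from it. The p-values measure the spread between these samples.

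The members, like the control-only regions, were shorter than regions of similar pileup called in all 6 samples. The median region was 374 bp long (95% interval 371 to 377 bp), whereas regions called in all 6 samples, weighted to the same distribution of pileup, had a median of 483 bp. A region joined from 6 lists can extend further than a region joined from 3, so single peaks were measured too. The mean length of a member's TGF-β1 peaks had a median of 319.7 bp against 370 bp. Control-only regions had a median of 367 bp, against 483 bp in regions called in all 6 samples weighted to their pileup. Their control peaks had 311.7 bp against 352.7 bp, so the short length is not particular to the members. GC content around the summit had a median of 47.7% in the members and in the regions of similar pileup. CpG numbered 2.49 per 100 bp on average in the members against 2.57. Both depended on the comparison. Regions weighted to the members' fold enrichment had a median GC content of 49% and 3.02 CpG per 100 bp, and over the whole region the members had 2.36 CpG per 100 bp against 2.31. Repeated sequence, taken as a window whose 20-base words have a median of at least 10 copies in the genome, made up 15.5% of the members and 20.6% of the regions of similar pileup. Windows with a median of 1 copy made up 77.6% and 69.9%.

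Each member was given the gene element at its mean summit, in the order coding sequence (CDS), 2 kb upstream of a start (Up2k), 2 kb downstream of an end (Down2k), untranslated region (UTR), intron and intergenic. Of the 1611 placed members, 691 (42.9%, 95% exact interval 40.5 to 45.4%) lay in introns and 711 (44.1%, 41.7 to 46.6%) were intergenic. Regions of similar pileup called in all 6 samples had 38.2% in introns and 49.4% in intergenic sequence. CDS held 106 members (6.58%, 5.42 to 7.90%) against 5.45%, Up2k 42 (2.61%) against 3.12%, Down2k 39 (2.42%) against 2.58% and UTR 22 (1.37%) against 1.26%. The median distance to the nearest protein-coding start was 30995 bp against 32758 bp, and 52 members (3.23%) lay within 1 kb of a start against 3.30%. The direction of the intergenic, CDS and start distance differences depended on the matching. When the regions called in all 6 samples were weighted to the members' fold enrichment instead of pileup, they had 39.7% intergenic and 7.76% CDS, so that the members had more intergenic and less coding sequence. The median distance to a start was then 25436 bp in these regions, below that of the members. Without control replicate 1, the CDS shares were 6.57% in the members and 6.89% in regions of similar pileup.

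**Figure D4:**
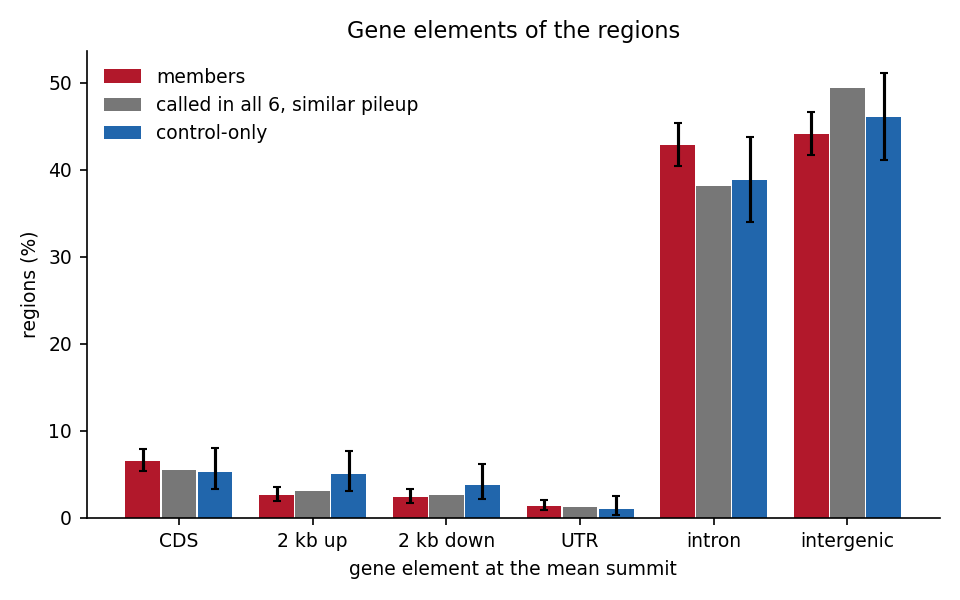
Share of regions (y axis, percent) by gene element at the mean summit (x axis) for TGF-β1-only regions (red), regions called in all 6 samples weighted to the same pileup (grey) and control-only regions (blue), with 95% exact intervals. Introns hold 42.9% of the members against 38.2% of the regions of similar pileup, and the other elements differ less except intergenic sequence, with 44.1% against 49.4%.

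Among members in coding sequence, the highest mean pileup was in CDS exon 10 of Pcnxl2 (38, 35 and 26 reads in TGF-β1 replicates 1 to 3). CDS exon 9 of the peroxidase gene Pxdn, whose product cross-links type IV collagen, had 24, 32 and 32 reads, and CDS exon 16 of Klraq1 had 28, 29 and 31 reads. These 3 had neighbouring regions called in both groups. That beside Pxdn was called in all 6 samples with 33, 24 and 24 reads in the control samples and 38, 35 and 36 reads in the TGF-β1 samples. With the limit of 5 on fold enrichment, the Klraq1 region kept its call and those in Pcnxl2 and Pxdn did not.

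Among members upstream of starts, 3 of high mean pileup were before the epithelial transcription factor gene Grhl1 (26, 19 and 29 reads), at an internal start of the Rac activator gene Tiam1 (24, 21 and 27 reads) and before the nucleotide hydrolase gene Entpd7 (24, 18 and 26 reads). Their distances to the start ran from 822 to 989 bp. In UTR exons, the Rac activator gene Arhgef7 had 27, 23 and 35 reads and the sorting nexin gene Snx18 had 23, 27 and 33 reads. None of these 5 regions kept its call at a fold enrichment of at least 5.

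Of 22225 protein-coding genes, 886 (3.99%) held a member within the gene or 2 kb of it, and 832 of these held a single one. The share rose with gene length, from 0.337% in the shortest 20% of genes to 12.4% in the longest 20%, and for control-only regions from 0.180% to 3.19%. Gene groups are therefore read beside the share in all genes of matching length. Lists were chosen with earlier results of these data known, and no test was run on them.

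In the TGF-β and BMP group of ligands, receptors and binding proteins, 5 of 30 genes (16.7%) held a member, against 6.85% at matching gene length. Intron 1 of the ligand gene Tgfb2 had 26, 34 and 39 reads in TGF-β1 replicates 1, 2 and 3 at chr1:188501032-188501377. A region called in all 6 samples lay 261 bp away, with 27, 32 and 38 reads in the control samples and 33, 43 and 41 reads in the TGF-β1 samples. Intron 1 of the ligand gene Tgfb3 had 24, 23 and 20 reads at chr12:87416082-87416501, and the nearest control peak was 5310 bp away. Intron 2 of the co-receptor gene Tgfbr3 had 24, 27 and 28 reads at chr5:107693467-107693799. The member assigned to Bmp6 lay beyond its 3′ end, in the last exon of the neighbouring gene Txndc5, with 28, 27 and 26 reads. The latent binding protein gene Ltbp4 held the fifth, with a mean of 16.7 reads. At a fold enrichment of at least 5, the Tgfb3 region kept its call and those of Tgfb2, Tgfbr3 and Bmp6 did not.

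Of the 16 genes of the Smad group, which carries the signal to the nucleus, only Smad3 held a member (6.25% against 6.24%), with 19, 14 and 17 reads at the end of a shorter transcript within the gene, and its call was lost at a fold enrichment of at least 5. The remaining Smad genes of the list, among them Smad2, Smad4 and Smad7, held none.

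Matrix and profibrotic genes held members in 4 of 45 (8.89% against 7.33%). The 3′ end of Timp2, an inhibitor of matrix proteases, had 31, 28 and 36 reads at chr11:118163042-118163403, with a control peak 314 bp away. Intron 4 of the fibrillar collagen gene Col5a1 had 18, 21 and 23 reads and intron 4 of the elastin gene Eln had 17, 17 and 21 reads. Beyond the end of Loxl2, a collagen cross-linking oxidase, and beside R3hcc1, a region had 18, 16 and 17 reads. The type I, III and IV collagen genes of this list, fibronectin (Fn1) and Ctgf held none. Over all collagen genes, 5 of 43 held a member (11.6% against 10.8%), the others being Col14a1, Col23a1, Col11a1 and Col7a1. Integrin and laminin genes held 1 in 28 (3.57% against 9.68%), in intron 2 of the collagen-binding integrin gene Itga11 with 16, 13 and 23 reads. The same limit on fold enrichment ended the calls of Timp2 and Itga11, and those of Col5a1, Eln, Loxl2, Col14a1, Col23a1 and Col11a1 were kept.

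Mesangial, pericyte and contractile genes held members in 5 of 34 (14.7% against 5.12%). One of the 5 is Klf7, a transcription factor gene that is not a marker of these cells. Klf7 and Gja4, also on this list, are genes that the study singles out for methylation after TGF-β1, so they are not independent evidence and the share is not read as an excess. CDS exon 3 of Des, which encodes the muscle intermediate filament desmin, had 21, 24 and 24 reads at chr1:75358766-75359101. A control peak lay 275 bp away, in a region called in control replicates 1 and 3 (18 and 26 reads) and in TGF-β1 replicates 2 and 3 (22 and 24 reads). Intron 8 of Mylk, the myosin light chain kinase that drives contraction, had 21, 18 and 22 reads. The last UTR exon of the PDGF receptor gene Pdgfra had 16, 15 and 16 reads, and Cnn1, a contractile regulator, held a region with a mean of 12.3 reads. Intron 1 of the transcription factor gene Klf7 had 13, 18 and 27 reads, with TGF-β1 replicate 3 the highest and replicate 1 the lowest. This region is not the exon that the study reports. Pdgfrb, Acta2, Tagln, Myh11 and Gja4 of this list held none. The members are calls present only after TGF-β1, so a loss of methylation such as that reported for Gja4 would not appear among them. At a fold enrichment of at least 5, the calls in Des, Mylk, Pdgfra and Klf7 were lost.

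Among developmental and signalling groups, Wnt genes held members in 2 of 46 (4.35% against 4.03%), in Tcf7l2, a nuclear effector of the pathway (27, 30 and 39 reads in intron 4), and beyond the end of Wnt9b (16, 15 and 15 reads). Kidney developmental transcription factors held 3 of 32 (9.38% against 4.32%), among them Eya1 and Meis2, none above a mean of 17 reads. Notch genes held 1 of 18 (5.56% against 4.91%), with a pair of members in Maml3. Axon guidance genes held 7 of 69 (10.1% against 10.6%), led by CDS exon 12 of the semaphorin and VEGF co-receptor gene Nrp2 (27, 21 and 26 reads), with Sema6d, Ntn4, Ntn1, Robo2, Ephb1 and Slit3. Cadherin genes held 3 of 22 (13.6% against 13.6%), in Cdh18, Cdh2 and Cdh12. Voltage-gated calcium channel α1 genes held 1 of 10 (10.0% against 13.6%), in Cacna1a. Of the regions ranked highest in these groups, those in Sema6d, Ntn1, Cdh18, Cdh2 and Cdh12 kept their calls with the limit on fold enrichment, and those of Tcf7l2, Wnt9b, Eya1, Meis2, Maml3, Nrp2, Ntn4 and Cacna1a did not.

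Genes of other kidney and blood cells and of large gene families were counted as well. Podocyte and tubule genes held 4 of 30 (13.3% against 6.83%), in Synpo (CDS exon 2, 23, 26 and 24 reads), Ptpro, Slc5a1 and Cubn, and endothelial and immune genes held 1 of 20 (5% against 5.76%), in Vwf. The writers, erasers and readers of DNA methylation held 0 of 18 (5.15% at matching length). Hox genes held 0 of 39 (1.15%), clustered protocadherin genes 0 of 24 (2.04%) and vomeronasal receptor genes 0 of 321 (1.38%). Olfactory receptor genes held 1 of 1113 (0.0898% against 0.321%), before Olfr768. Numbered Zfp zinc finger genes held 12 of 340 (3.53% against 2.99%), led by intron 2 of Zfp516 (35, 31 and 28 reads), solute carrier genes 15 of 353 (4.25% against 4.71%) and cytochrome P450 genes 1 of 98 (1.02% against 2.92%), in Cyp46a1. The calls in Ptpro and Slc5a1 were kept with the limit on fold enrichment. Those of Synpo, Cubn, Vwf, Olfr768, Zfp516 and Cyp46a1 were lost. Of the Zfp regions ranked next by pileup, those of Zfp652 and Zfp957 kept their calls and that of Zfp691 did not. Of the solute carrier regions ranked highest, those of Slc7a8, Slc25a38 and Slc4a7 kept theirs and that of Slc12a4 did not.

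Few genes held several members. The largest number, 5, was assigned to Fgfr2, but its gene model in the annotation used spans 3009 kb across several neighbours, and only 2 of the 5 lay in sequence that no other gene shared, in intron 13 (18, 12 and 18 reads) and intron 2 (25, 27 and 25 reads). The others were in Tacc2, Dmbt1 and Chst15. The 4 assigned to Gm20388 lay along a model of 4435 kb, and 3 of them were in Gse1, Zcchc14 and Zfpm1. Npas3, a neuronal transcription factor gene of 823 kb, held 4 members with means from 15.7 to 23.7 reads. Smyd3, a methyltransferase gene, held 3, of which that in intron 1 had 36, 30 and 38 reads. Clip2, a microtubule-binding protein gene of 63.0 kb, held 3, in introns 7, 2 and 1, with means of 22.7, 29.7 and 25 reads, and it held 1 region called in all 6 samples. At a fold enrichment of at least 5, the calls in introns 5 and 1 of Smyd3, in introns 2 and 1 of Clip2, in introns 13 and 2 of Fgfr2, in intron 1 of Npas3 and in Gse1 and Zcchc14 were lost.

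Few members lay close to another member. Another member lay within 100 kb of 269 members (16.7%) and within 10 kb of 18 (1.12%), and the median distance to the nearest other member was 385477 bp. Regions called in all 6 samples, which are far more numerous, had a neighbour of their own kind within 100 kb in 94.6% of cases, and the 397 control-only regions in 3.02%. These shares follow the number of regions in each set and are not compared further. The median distance from a member to the nearest region called in all 6 samples was 14428 bp. The densest window of 1 Mb lay at chr11:117345260-118255292 with 7 members, 0 control-only regions and 36 regions called in all 6 samples. It holds 19 protein-coding genes, among them Timp2, the cytokine signalling inhibitor gene Socs3 and the cell division genes Birc5 and Tk1. A window at chr8:8292061-9195786 also held 7 members, with 1 control-only region, and only 3 genes, including the ephrin ligand gene Efnb2 and Arglu1. The third, at chr12:100803662-101534485, held 6 members and 0 control-only regions around the proteasome gene Psmc1 and the DNA repair gene Tdp1.

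Across chromosomes, chromosome 12 stood highest among the autosomes. It held 102 members, 4.08% of its regions called in all 3 TGF-β1 samples (95% exact interval 3.34 to 4.93%), and 6 control-only regions. Chromosome 2 followed with 132 members (3.62%, 3.04 to 4.28%). Chromosome 17 was lowest with 54 members (1.72%, 1.30 to 2.24%), and chromosome 8 held 91 (1.87%, 1.51 to 2.29%). The intervals of chromosomes 12 and 2 overlap. Pileup per 1000000 reads in the regions called in all 6 samples moved the same way, with a median log2 ratio of TGF-β1 to control of -0.046 on chromosome 12 and -0.13 on chromosome 17, the highest and lowest of the 19 autosomes. Over these 19 chromosomes, which share the same 6 libraries, the share of members and this ratio had r = 0.57 (Spearman rho = 0.55), given as a description.

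**Figure D5:**
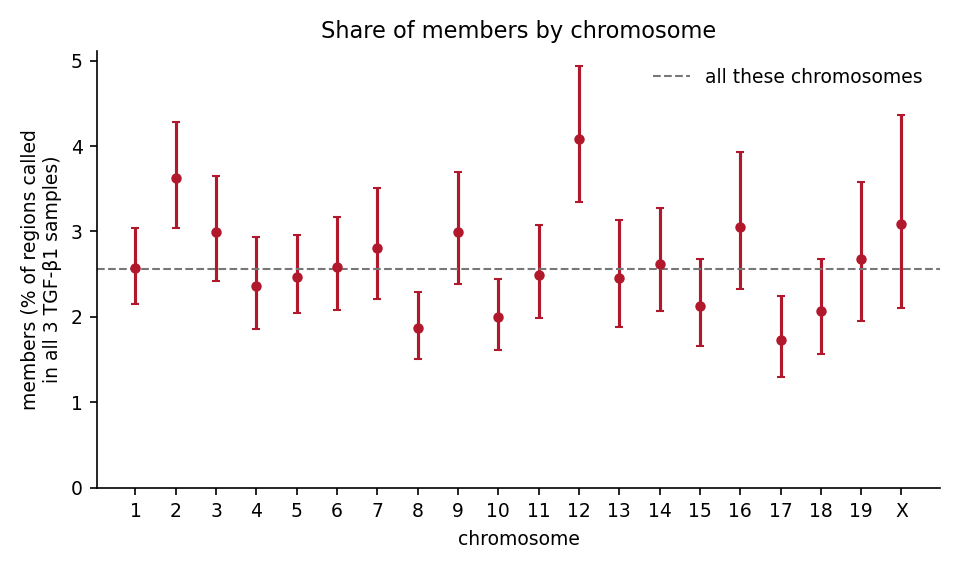
TGF-β1-only regions as a share of the regions called in all 3 TGF-β1 samples (y axis, percent, with 95% exact intervals) on each chromosome (x axis), with the value over all chromosomes drawn as a dashed line. Chromosome 12 is highest at 4.08% and chromosome 17 lowest at 1.72%.

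Sequence motifs were counted on both strands in the 300-bp windows. The AP-1 site TGANTCA was found in 121 members (7.51%, against 6.50% of regions of similar pileup), the E-box CACGTG in 151 (9.37% against 8.63%), the Smad-binding palindrome GTCTAGAC in 2 (0.124% against 0.156%) and the short word CCCTC in 831 (51.6% against 50.02%). Over all regions called in all 6 samples the shares were 6.13%, 8.34%, 0.178% and 51.9%. Runs of at least 12 CA repeats were found in 49 members (3.04%), in 5.11% of the regions of similar pileup and in 9.57% of the control-only regions, but in 2.51% of all regions called in all 6 samples, below the share in the members. A match is a run of letters and no evidence of binding.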

How the data were processed

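According to the headers and the methods of the study, the authors mapped reads to mm9 with BWA and called peaks with MACS2 2.1.0.20150731 in each sample separately, at a q cutoff of 0.01, without input and with a regional background of 10000 bp. The deposited pileup is a signal, not scaled for depth (9407103 to 13291419 reads per sample). The deposited fold enrichment is a ratio of pileup plus 1 to local background plus 1, and -log10 is the scale of each deposited p-value and q-value. Uncalled regions have no values here.

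Peaks were joined at 1 bp of overlap, and the members were chosen by the calls of the 6 samples. The members and gene lists were chosen with earlier results of these data known. Regions called in all 6 samples were weighted to the members' mean TGF-β1 pileup in classes of 2 reads. Sequence and elements came from NCBIM37 and GENCODE vM1. The reference is not soft-masked, so copies of 20-mers replaced the planned repeat-masked share. Named regions were, on annotated chromosomes, the 8 of highest mean pileup, the 4 of highest fold enrichment, the top 4 in CDS, 4 in Up2k and 2 in UTR, the 3 lowest and the 3 just outside, the 5 genes holding most members and up to 4 genes per list; others named are list genes without a member or list members below these ranks, named after their values were seen. Calculations used Python 3.11.15 and limma 3.58.1 in R 4.3.3, tested on simulated data. The alternatives were a stricter q, fold enrichment of at least 5, autosomes, joining across 200 bp, a common pileup per 1000000 reads, other matching, windows and distances, samples left out, and a replicate block. Some results that the rule would name are not reported here.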

Additional observations from a re-analysis of the deposited data

How the results depend on the processing

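The number of TGF-β1-only regions was 1592 at a -log10 q of at least 5, 1158 at a fold enrichment of at least 5 (853 of the original 1616 kept, with 521 control-only regions), 1579 on autosomes or with joining across 200 bp, and 1600 with a common pileup per 1000000 reads. Leaving out 1 sample loosens the rule. The number was then 3024, 3094 and 3918 without control replicates 1, 2 and 3, and 3667, 4348 and 3418 without TGF-β1 replicates 1, 2 and 3, with 819 to 1873 control-only regions in place of 397.

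The differences below are members minus regions of similar pileup, and except where the construction shows it the cause of a change was not tested. The length difference of -109 bp was -90 bp with the stricter q, -66 bp with the fold enrichment limit, -115 bp with joining across 200 bp, -138 bp when matched on fold enrichment, -105 bp with classes of 5 reads, and -115 to -78 bp with 1 sample left out. Matching on fold enrichment turned the CDS difference from 1.13 to -1.18 percentage points, the intergenic difference from -5.28 to 4.44 points and the distance to the start from -1763 to 5559 bp. With 1 sample left out, the CDS difference ran from -0.314 (without control replicate 1) to 2.05 points. The GC difference of 0 was -0.333 points with the stricter q, -1.33 when matched on fold enrichment and -1 to 1 with 1 sample left out. The CpG difference of -0.0784 per 100 bp was -0.528 when matched on fold enrichment, 0.0568 over the whole region, and -0.242 to 0.00544 with 1 sample left out. The share of members with another within 100 kb (16.7%) was 13.1% with the fold enrichment limit, and it follows the number of members, being 29.1 to 39.96% with 1 sample left out. It was 1.12% within 10 kb and 79% within 1000000 bp. The share with a control peak within 1 kb (16%) was 11.7% with the fold enrichment limit and 12.9% with joining across 200 bp, 3.09% within 200 bp and 56.6% within 5 kb.

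For the regions next to members, the limma median of -0.022 was -0.11 per 1000000 reads (where all regions moved to -0.095), -0.041 for fold enrichment, and -0.0395 to -0.0077 with 1 sample left out. The number higher at an unadjusted p below 0.05 was 7, and 1 per 1000000 reads, 62 within 50 kb, 24 with regions called in at least 3 samples and 6 to 20 with 1 sample left out. The number lower was 18, and 54 per 1000000 reads, 68 within 50 kb, 26 with regions called in at least 3 samples and 16 to 25 with 1 sample left out. Over all regions, 1 passed an adjusted p of 0.05 for fold enrichment and 0 under the other alternatives. Same-numbered samples shared only a number: their deviations correlated with a mean r of -0.045 (3 pairs, -0.13 to 0.043). With the replicate block, 6 regions were higher and the median was -0.022. Of the 90 named regions, 38 kept their calls at a fold enrichment of at least 5. The losses included the 3 members of lowest mean pileup, in Dscaml1, in Megf10 and near Tcfap2c. The repeat-masked share was not run. The share of repeated 20-mers that replaced it differed by -5.06 percentage points, and by -4.96 when matched on fold enrichment, -4.65 with classes of 5 reads and -4.87 on autosomes. With a common pileup per 1000000 reads, 1598 of the 1616 members were kept. The TGF-β1 samples were all deeper than the control samples, and the calls cannot separate depth from treatment.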
